A study of Mus musculus with 16 samples.

Results

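Cadherins are calcium-dependent adhesion proteins of the cell surface that bind like partners on neighbouring cells. Classical cadherins carry a cytoplasmic tail that binds catenins, which link the junction to actin, and in the hippocampus they take part in sorting axons, in matching pre- and postsynaptic cells and in spine growth. Type I members (Cdh1, Cdh2 and Cdh4, which encode E-, N- and R-cadherin) and type II members (Cdh6, Cdh8, Cdh9, Cdh10, Cdh11 and Cdh12) differ in their adhesive domain. Cdh13 encodes T-cadherin, which is held in the membrane by a lipid anchor and has no catenin-binding tail, so that the name classical cadherin does not cover it.

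These 10 cadherin genes were examined in the mouse hippocampus, each through its 1 probe set on the array, out of 19935 genes with a probe set of a single symbol. The family was selected on measured values of these same arrays, the lower log2 signal of Cdh4 and Cdh13 on cbp+/- than on wild-type arrays. The genotype differences below are therefore descriptions with no test, and tests are given only for housing and for the interaction of housing with genotype.

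The 16 arrays were made from 64 female mice of 3 months, all from an F2 background of C57BL/6J and DBA, with the hippocampal RNA of 4 mice pooled for each array. The groups were cbp+/- mice (heterozygous for a deficiency of Crebbp, the gene of the acetyltransferase and CREB coactivator CBP) after 2 weeks of environmental enrichment (CBP_EE, 3 arrays), wild-type littermates after the same enrichment (WT_EE, 3 arrays), cbp+/- mice in standard cages (CBP_SC, 5 arrays) and wild-type littermates in standard cages (WT_SC, 5 arrays). Enrichment was a large box shared by many mice, with toys, tubing and running wheels. Each pool is 1 biological replicate, and pooling hides the spread between single mice. Values are log2 of the deposited probe set intensity, and levels of different genes are not set against each other because each probe set has its own response. In bulk tissue, fewer cells of a type and less RNA per cell cannot be told apart.

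Of the 25 measured markers of dentate granule and CA pyramidal cells, 22 were brighter than the median probe set over the 16 arrays. Among them were Prox1 of dentate granule cells (8.42 log2 units), Wfs1 of CA1 (8.16) and Grik4 of CA3 pyramidal cells (8.50), while Tdo2 (5.14), Map3k15 (5.65) and Iyd were dimmer than the median. Crebbp was not lower on arrays labelled cbp+/-: it was higher in 8 of 8 same-numbered genotype pairs, by 0.12 on average (SE 0.081, adjusted p = 1.00 with limma), so that this probe set does not separate the genotypes in the direction of their labels. In what follows cbp+/- and wild type stand for the labels of the arrays. Array medians of the intensity ran from 76.7 to 85.5. The 10 choroid plexus markers stood apart on 1 array, CBP_SC_3, where their median level was 0.71 above the mean of all arrays, against -0.14 to 0.040 on the other 15. Of these markers Ttr also varied widely among the other arrays, from 7.14 on WT_SC_4 to 10.90 on WT_SC_1.

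Cdh4 was lower on cbp+/- arrays in both housings. R-cadherin, which it encodes, is a type I cadherin known from developing axon tracts and retina. In enrichment its log2 signal was 6.41, 6.35 and 6.26 on the CBP_EE arrays, against 6.74, 6.66 and 6.66 on the WT_EE arrays. These groups did not overlap. In standard cages it was 6.27, 6.41, 6.65, 6.44 and 6.37 on the CBP_SC arrays, against 6.58, 6.53, 6.86, 6.62 and 6.52 on the WT_SC arrays. Here the groups overlapped through CBP_SC_3, the highest cbp+/- array, whose same-numbered partner WT_SC_3 was the highest wild-type array.

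The Cdh4 difference was -0.35 (SE 0.096), or 0.787-fold, in enrichment and -0.19 (SE 0.074), or 0.876-fold, in standard cages. Averaged over housings with equal weight it was -0.27 (SE 0.060), or 0.830-fold. It was lower in 8 of 8 same-numbered pairs, with pair differences from -0.40 to -0.11. Of all 21780 probe sets tested, 0.927% were lower in 8 of 8 pairs, and 6.85% had CBP_EE arrays wholly below the WT_EE arrays. Cdh4 was chosen for this difference, and nothing is read from these shares. The group means were 6.34 ± 0.074 for CBP_EE, 6.69 ± 0.044 for WT_EE, 6.43 ± 0.14 for CBP_SC and 6.62 ± 0.14 for WT_SC (SD, n = 3, 3, 5 and 5). From high to low the order was WT_EE, WT_SC, CBP_SC, CBP_EE. The housing groups of each genotype differed by less than the SD of the standard-cage arrays, while WT_SC and CBP_SC, the middle neighbours, differed by more than either SD.

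Housing did not move Cdh4 past the threshold in either genotype. Enrichment went with a difference of -0.091 in cbp+/- (SE 0.085, adjusted p = 0.999) and 0.064 in wild type (SE 0.085, adjusted p = 0.720). The interaction, the cbp+/- housing effect minus the wild-type one, was -0.16 (SE 0.12, 95% interval -0.41 to 0.10, adjusted p = 1.00). With the same-numbered genotype pairs as a block the same estimate had an SE of 0.066 (unadjusted p = 0.0403, adjusted p = 0.731 with limma), in a fit where 6.62% of all probe sets had an unadjusted p under 0.05. That fit uses the pair differences for which Cdh4 was chosen, so nothing is read from its unadjusted p. The lowest p of the other cadherins in it was that of Cdh9 (unadjusted p = 0.143, adjusted p = 0.752 with limma). The wider genotype gap in enrichment than in standard cages passed the adjusted threshold in neither fit.

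**Figure D1:**
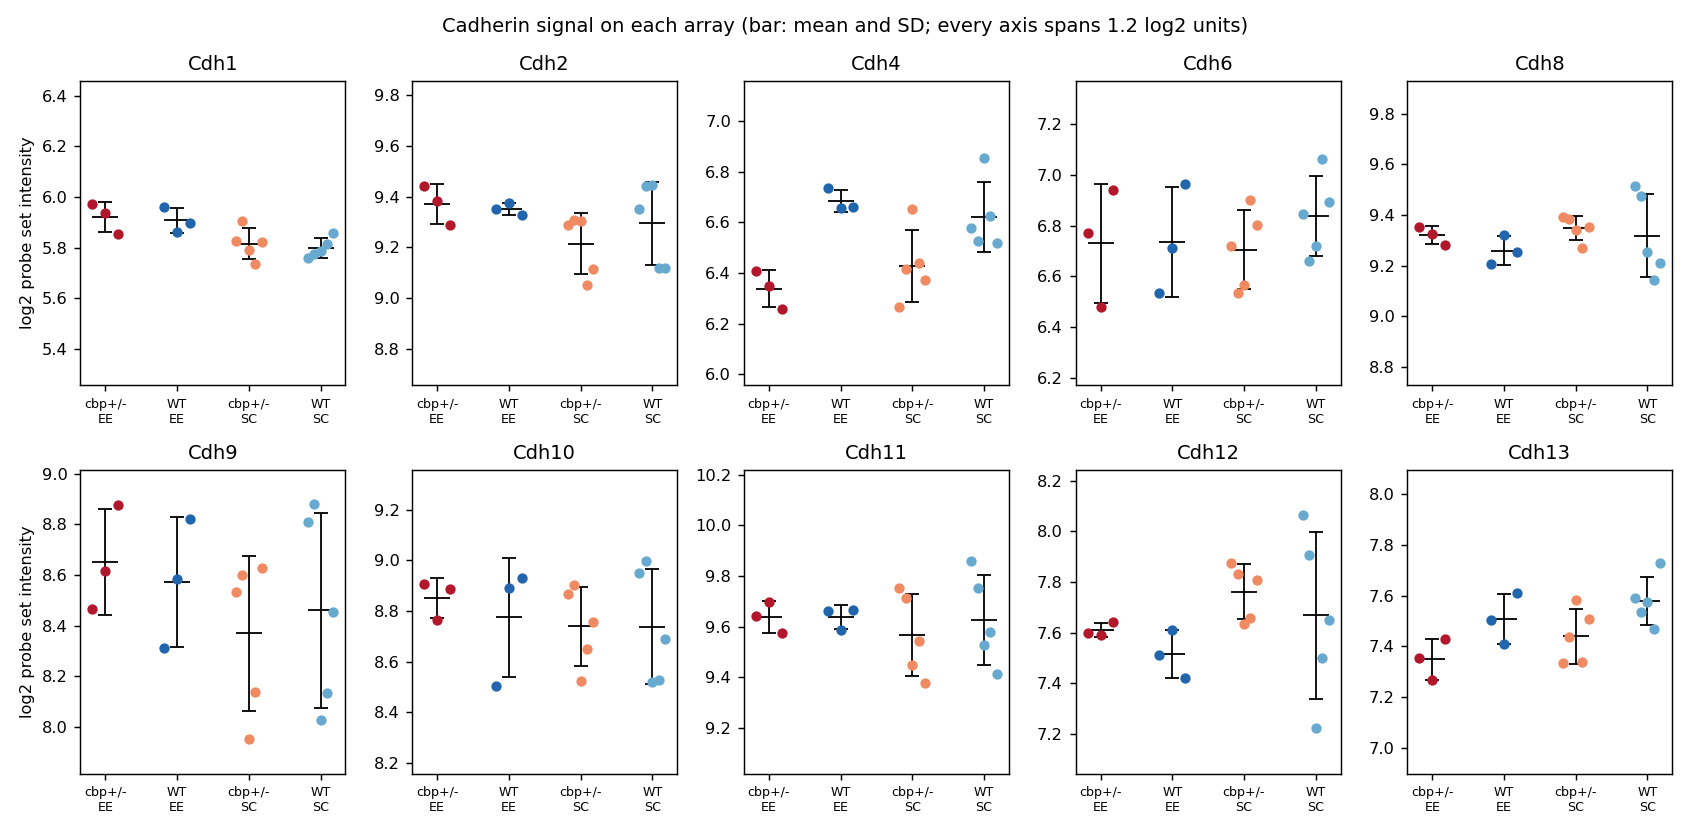
Log2 probe set intensity of the 10 cadherins on each of the 16 arrays, with the mean and SD of each group, for cbp+/- and wild type in enrichment (EE) and cbp+/- and wild type in standard cages (SC). Cdh4 lies at 6.26 to 6.41 on CBP_EE arrays, below the 6.66 to 6.74 of WT_EE arrays. Cdh9 spreads widely within all groups and Cdh12 within WT_SC.

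Cdh13 was also lower on cbp+/- arrays in both housings on average. T-cadherin is a receptor for adiponectin and is present on interneurons and at synapses of the hippocampus. In enrichment its log2 signal was 7.35, 7.27 and 7.43 on the CBP_EE arrays, against 7.51, 7.41 and 7.61 on the WT_EE arrays. In standard cages it was 7.33, 7.44, 7.58, 7.34 and 7.51 on the CBP_SC arrays, against 7.59, 7.53, 7.57, 7.47 and 7.73 on the WT_SC arrays. The genotypes overlapped in both housings, and CBP_SC_3 was again the highest cbp+/- array.

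The Cdh13 difference was -0.16 (SE 0.080) in enrichment, -0.14 (SE 0.062) in standard cages and -0.15 (SE 0.051), or 0.902-fold, on average. Like Cdh6 and Cdh11, Cdh13 was lower in 7 of 8 pairs, its exception being pair 3 of the standard cages (0.0082). Of all probe sets 5.12% were lower in at least 7 of 8. The group means were 7.35 ± 0.081 for CBP_EE, 7.51 ± 0.099 for WT_EE, 7.44 ± 0.11 for CBP_SC and 7.58 ± 0.095 for WT_SC (SD, n = 3, 3, 5 and 5). From high to low the order was WT_SC, WT_EE, CBP_SC, CBP_EE, and each neighbouring pair of groups in it differed by less than the larger of the 2 SDs. Enrichment went with -0.090 in cbp+/- (SE 0.072, adjusted p = 0.999) and -0.071 in wild type (SE 0.072, adjusted p = 0.633), and the interaction was -0.020 (SE 0.10, adjusted p = 1.00). With arrays weighted by quality the wild-type housing difference of Cdh13 passed, at -0.14 (adjusted p = 0.0408), in a fit that called 5254 of the 21780 probe sets.

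The levels of the neocortex and striatum marker lists were lower on cbp+/- arrays in 8 of 8 pairs, and those of other neighbouring tissues were not. Of the 7 neocortex markers, 6 were lower on cbp+/- arrays averaged over housings, where 56.7% of all probe sets were lower. The level of this list (the median deviation of its members from their means over the 16 arrays) lay between -0.16 and -0.049 on CBP_EE and between -0.074 and 0.19 on WT_EE arrays. In standard cages it lay between -0.21 and 0.038 on CBP_SC and between -0.052 and 0.17 on WT_SC arrays, and it was lower in 8 of 8 pairs. Of the 5 measured striatum markers 4 were lower, again with a list level lower in 8 of 8 pairs, between -0.091 and 0.0036 on CBP_EE, -0.075 and 0.075 on WT_EE, -0.098 and 0.047 on CBP_SC and -0.037 and 0.17 on WT_SC arrays. These 2 were the only ones of 15 marker lists that were lower in 8 of 8 pairs. The thalamus list was lower in 2 of 8 pairs, though 4 of its 6 genes were lower on average (median difference of its genes -0.0081). The meninges list was lower in 2 of 8 pairs (0.10, 2 of 8 genes) and the choroid plexus list in 5 of 8 (0.065, 3 of 10 genes). Within the hippocampus, the list of dentate granule cells was lower in 6 of 8 pairs (-0.091, 6 of 8 genes lower), that of astrocytes in 6 of 8 (-0.080, 6 of 8 genes) and that of interneurons in 6 of 8 (-0.050, 7 of 11 genes), against -0.078 for neocortex and -0.099 for striatum. The part of these tissues and cells in the lower Cdh4 and Cdh13 was not tested.

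The genes whose log2 signal was most like that of Cdh4 over the 16 arrays were Bcl7a (Pearson r = 0.85), which encodes a subunit of SWI/SNF chromatin remodelling complexes, the olfactory receptor gene Olfr1202 (0.84), Dock5, an activator of the GTPase Rac (0.84), the septin gene Septin9 (0.83) and Spred2, an inhibitor of Ras signalling (0.83). Pair differences remove what the arrays of a pair share, though pairing in enrichment is not established. Over the 8 pair differences r was 0.88 for Bcl7a, 0.71 for Spred2, 0.67 for Olfr1202, 0.46 for Dock5 and 0.069 for Septin9. For Cdh13 they were Grp, the gastrin-releasing peptide gene (0.78), Zdbf2 (0.76), Coq10b (0.75), the tetraspanin gene Tspan2 (0.74) and Tgfbr1, a receptor for TGF-beta (0.74), with 0.46, 0.30, -0.29, -0.28 and 0.74 over the pair differences. Cdh4 and Cdh13 themselves had r = 0.56 over the arrays and 0.33 over the pair differences. All these genes were picked as the closest of 21780 probe sets, and the arrays share genotype, housing and processing, so the values are descriptions.

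The other type I members, Cdh2 and Cdh1, had smaller genotype differences, of -0.032 (SE 0.062) and 0.015 (SE 0.033) on average. N-cadherin, the main cadherin of excitatory synapses, is encoded by Cdh2. Its signal was 9.44, 9.38 and 9.29 on CBP_EE, against 9.35, 9.38 and 9.33 on WT_EE arrays, and 9.29, 9.31, 9.30, 9.05 and 9.12 on CBP_SC, against 9.35, 9.44, 9.44, 9.12 and 9.12 on WT_SC arrays. The genotypes overlapped in both housings, and the difference was 0.017 (SE 0.098) in enrichment and -0.081 (SE 0.076) in standard cages, where it was lower in 5 of 5 pairs. Of all probe sets 3.56% were lower in 5 of 5 standard-cage pairs. Enrichment went with 0.16 in cbp+/- (SE 0.087, adjusted p = 0.999) and 0.058 in wild type (SE 0.087, adjusted p = 0.756).

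Cdh1, which encodes E-cadherin, best known from epithelia, was dim, at 5.97, 5.93 and 5.85 on CBP_EE, against 5.96, 5.86 and 5.90 on WT_EE arrays. In standard cages it was 5.83, 5.90, 5.79, 5.73 and 5.82 on CBP_SC and 5.76, 5.77, 5.79, 5.82 and 5.86 on WT_SC arrays. The enriched arrays of both genotypes were mostly above the standard-cage arrays. Enrichment went with 0.11 in cbp+/- (SE 0.046, 95% interval 0.0072 to 0.20, unadjusted p = 0.0372, adjusted p = 0.999) and 0.11 in wild type (SE 0.046, 95% interval 0.010 to 0.21, unadjusted p = 0.0327, adjusted p = 0.239).

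Cdh1 thus passed only the unadjusted threshold of 0.05, in both genotypes, and it alone of the 10 cadherins had WT_EE arrays wholly above the WT_SC arrays. Over all probe sets 9.16% had WT_EE wholly above WT_SC, and 14.1% were higher in wild-type enrichment at an unadjusted p under 0.05, against 1.54% in cbp+/- enrichment. The interquartile range of log2 signal over all probe sets was 2.22 to 2.37 on WT_EE arrays, against 2.49 to 2.58 on WT_SC arrays. Quantile normalization, which gives all arrays 1 distribution, took the difference of Cdh1 to 0.054 in cbp+/- (SE 0.039, adjusted p = 1.00) and to -0.011 in wild type (SE 0.039, adjusted p = 0.959). Array weights gave 0.12 in cbp+/- (adjusted p = 0.0416), where they called 1039 probe sets, and 0.088 in wild type (adjusted p = 0.0856), where they called 5254.

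Type II cadherins did not share a genotype direction. Over both housings 3 of 6 were lower and 3 higher on cbp+/- arrays, with differences from -0.070 for Cdh6 to 0.094 for Cdh12 and a median of 0.017, against -0.0095 for all probe sets. Cdh6 and Cdh11 were each lower in 5 of 5 standard-cage pairs, with pair differences of -0.16 to -0.090 and of -0.11 to -0.036. So were Cdh2 and Cdh4, and 3.56% of all probe sets. In enrichment Cdh6 and Cdh11 were lower in 2 of 3 pairs each, and over both housings in 7 of 8, as Cdh13 was. Of all probe sets 5.12% were lower in at least 7 of 8 pairs. Cdh6 averaged 6.73 ± 0.23 on CBP_EE, 6.74 ± 0.22 on WT_EE, 6.70 ± 0.16 on CBP_SC and 6.84 ± 0.16 on WT_SC arrays. Cdh11 averaged 9.64 ± 0.062, 9.64 ± 0.046, 9.57 ± 0.16 and 9.63 ± 0.18 in the same order of groups. For both genes all 4 groups overlapped and no 2 of them differed by more than the larger SD.

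**Figure D2:**
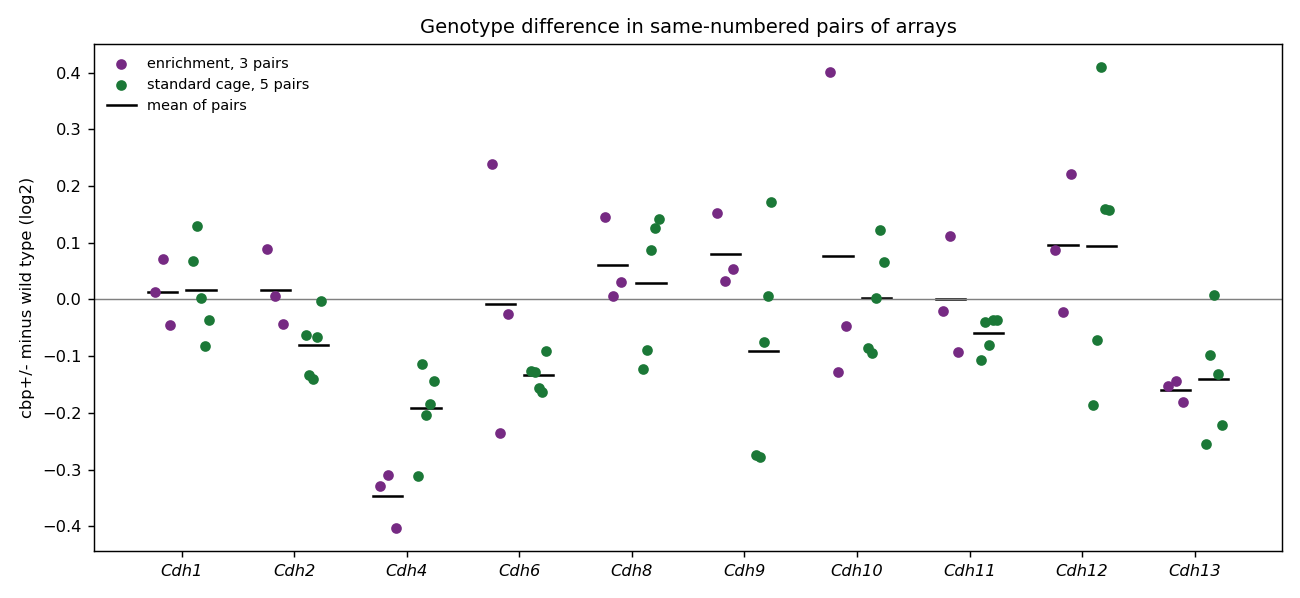
Log2 difference between the cbp+/- and the wild-type array of the same replicate number, for 3 pairs in enrichment and 5 in standard cages, with the mean of the pairs. Cdh4 lies below 0 in all 8 pairs, Cdh6, Cdh11 and Cdh13 in 7 each and Cdh2 in 6. Cdh1, Cdh8, Cdh9, Cdh10 and Cdh12 lie below 0 in 2 to 4 pairs.

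Cdh8, Cdh9, Cdh10, Cdh11 and Cdh12 spread more widely within the WT_SC group than their group means differed. Cdh9 marks CA3 and dentate neurons and takes part in forming mossy fibre synapses. Its signal was 8.46, 8.62 and 8.88 on CBP_EE, against 8.31, 8.58 and 8.82 on WT_EE arrays, and 8.53, 8.60, 7.95, 8.14 and 8.63 on CBP_SC, against 8.81, 8.88, 8.03, 8.13 and 8.46 on WT_SC arrays. Arrays 3 and 4 of the standard cages were the lowest in both genotypes.

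Cdh12, a brain cadherin, read 7.60, 7.59 and 7.64 on CBP_EE, against 7.51, 7.61 and 7.42 on WT_EE arrays, and 7.88, 7.83, 7.63, 7.66 and 7.81 on CBP_SC, against 8.06, 7.90, 7.22, 7.50 and 7.65 on WT_SC arrays. Its SD was 0.33 among the WT_SC arrays and 0.11 among the CBP_SC arrays. Cdh8, which encodes a cadherin of glutamatergic neurons, read 9.35, 9.33 and 9.28 on CBP_EE, against 9.21, 9.32 and 9.25 on WT_EE arrays, and 9.39, 9.38, 9.34, 9.27 and 9.35 on CBP_SC, against 9.51, 9.47, 9.25, 9.14 and 9.21 on WT_SC arrays. Arrays 1 and 2 of the standard cages were the highest for Cdh8, Cdh11 and Cdh12 within each genotype.

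Cdh10, the fifth of these genes, averaged 8.85 ± 0.077 on CBP_EE, 8.78 ± 0.24 on WT_EE, 8.74 ± 0.16 on CBP_SC and 8.74 ± 0.23 on WT_SC arrays, with all groups overlapping. In the order of their group means, Cdh9 and Cdh10 were highest in CBP_EE and Cdh8 and Cdh12 in CBP_SC, and for none of them did neighbours in that order differ by more than the larger SD.

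On the RefSeq map (GRCm38.p6) Cdh6, Cdh9, Cdh10 and Cdh12 follow one another on chromosome 15 with no other protein-coding gene between them, and Cdh8 and Cdh11 are neighbours on chromosome 8. Over the 16 arrays Cdh9 and Cdh10 had r = 0.88, Cdh9 and Cdh12 r = 0.52 and Cdh10 and Cdh12 r = 0.58, while Cdh6 had 0.085, 0.059 and -0.11 with these 3 genes. Cdh8 went with Cdh12 (r = 0.79) on another chromosome more closely than with its neighbour Cdh11 (r = 0.55). Over the 8 pair differences r was 0.59 for Cdh9 and Cdh10, 0.71 for Cdh8 and Cdh12 and 0.87 for Cdh8 and Cdh9. These values, the ones named out of all pairs among the 10 genes, are descriptions, and the arrays fall into sets that many genes share.

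The housing difference of these genes depends on which arrays enter. Over all arrays enrichment in wild type went with 0.11 for Cdh9 (SE 0.21, adjusted p = 0.810), -0.15 for Cdh12 (SE 0.14, adjusted p = 0.595) and -0.059 for Cdh8 (SE 0.075, adjusted p = 0.704). On the arrays numbered 1 and 2 alone, 2 per group and a choice made after seeing the data, Cdh12 fell by 0.42 (SE 0.068, adjusted p = 0.00712), Cdh9 by 0.40 (SE 0.094, adjusted p = 0.0182) and Cdh8 by 0.23 (SE 0.058, adjusted p = 0.0224) in wild-type enrichment. In that fit 13.8% of all probe sets were called lower and 16.1% higher, against 3 of the 10 cadherins called lower and 0 higher.

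The 7 other cadherins did not pass on these arrays; Cdh10 was at -0.28 (adjusted p = 0.0922) and Cdh11 at -0.18 (adjusted p = 0.0543). In cbp+/- mice on the same arrays Cdh12 was at -0.26 (SE 0.068, adjusted p = 0.311), Cdh9 at -0.026 (SE 0.094, adjusted p = 0.951) and Cdh8 at -0.049 (SE 0.058, adjusted p = 0.810). The housing effects of the genotypes were not distinguished there: the interaction was 0.37 for Cdh9 (SE 0.13, adjusted p = 0.255), 0.18 for Cdh8 (SE 0.083, adjusted p = 0.320) and 0.16 for Cdh12 (SE 0.097, adjusted p = 0.424). With limma 0 probe sets were called (0%) in cbp+/- enrichment on these arrays.

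**Figure D3:**
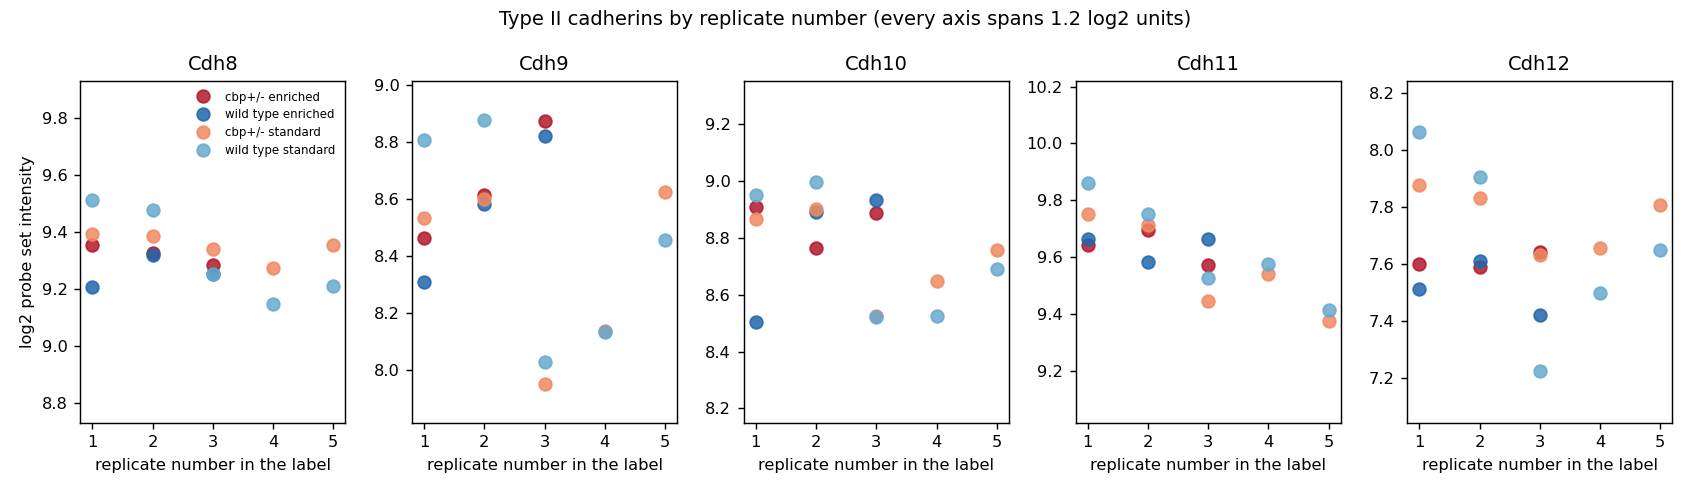
Log2 probe set intensity of Cdh8, Cdh9, Cdh10, Cdh11 and Cdh12 against the replicate number of the array, in 4 groups. Numbers only name replicates and have no order. Cdh12 lies at 7.83 to 8.06 on the 4 standard-cage arrays numbered 1 and 2 and at 7.22 to 7.81 on the other 6.

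The stretches before the transcription start of Cdh8, Cdh9 and Cdh12 are shown because these were the 3 cadherins past the threshold on the arrays numbered 1 and 2. RefSeq promoters of 5 of the 10 genes (Cdh6, Cdh8, Cdh9, Cdh10 and Cdh12) were searched for the motifs below. Those of Cdh1, Cdh2, Cdh4, Cdh11 and Cdh13 were not searched, so the motif counts do not cover these genes. Each line is the 250 bases upstream of the RefSeq start in GRCm38.p6, 5′ to 3′ on the gene's strand, at chr8:99416472-99416721 on the minus strand for Cdh8, chr15:16728665-16728914 on the plus strand for Cdh9 and chr15:21111202-21111451 on the plus strand for Cdh12. Capitals mark TGACG or its reverse complement CGTCA, the 5-letter core of the cAMP response element that CREB binds.
Cdh8: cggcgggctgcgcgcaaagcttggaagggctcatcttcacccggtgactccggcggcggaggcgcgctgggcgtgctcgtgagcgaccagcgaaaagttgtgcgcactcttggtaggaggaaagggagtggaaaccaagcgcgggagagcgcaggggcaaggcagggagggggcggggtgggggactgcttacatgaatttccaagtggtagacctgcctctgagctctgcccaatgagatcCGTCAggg
Cdh9: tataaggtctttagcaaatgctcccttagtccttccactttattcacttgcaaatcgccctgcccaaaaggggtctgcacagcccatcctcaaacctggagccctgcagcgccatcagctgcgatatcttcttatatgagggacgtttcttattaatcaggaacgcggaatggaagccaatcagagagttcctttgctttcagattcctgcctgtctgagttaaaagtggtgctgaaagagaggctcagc
Cdh12: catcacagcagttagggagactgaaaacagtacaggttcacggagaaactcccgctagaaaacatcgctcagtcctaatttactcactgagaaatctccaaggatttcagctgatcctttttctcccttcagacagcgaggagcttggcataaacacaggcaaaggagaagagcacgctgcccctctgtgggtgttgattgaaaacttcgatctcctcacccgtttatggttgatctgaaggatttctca

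The core lay in 1 of the 5 promoters, that of Cdh8, starting 8 bases before the start, and its full palindrome TGACGTCA in 0. Both strands were searched, and every TGACGTCA also holds the core. Of 32851 promoter windows of the same length in the RefSeq table, 17.8% hold the core and 1.55% the palindrome. The E-box CAGGTG, to which the repressors Snai1 and Zeb1 bind in the E-cadherin promoter, was in 0 of the 5 and in 17.2% of all windows, and the letters TATAAA were in 0 of the 5 and in 12.4%. The GC content was 64.4% for Cdh8, 48% for Cdh9 and 46.8% for Cdh12.

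Over the 16 arrays none of the 10 cadherins passed in the housing comparisons. In cbp+/- enrichment 6 were higher and 4 lower (55% of all probe sets were higher), with estimates from -0.15 (Cdh12) to 0.28 (Cdh9) and a median of 0.049, against 0.0096 for all probe sets. In wild-type enrichment 6 were higher and 4 lower (58.4% of all were higher), from -0.15 (Cdh12) to 0.11 (Cdh9), with a median of 0.025 against 0.029 for all. The count past an adjusted p of 0.05 with limma was 0 of 10 and 0 of 21780 (0%) in each genotype and in the interaction, while 2.82% of all probe sets in cbp+/-, 17.8% in wild type and 2.66% in the interaction had an unadjusted p under 0.05. Of the cadherins this was so of Cdh1 alone, in each genotype.

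The widest intervals were those of Cdh9, -0.17 to 0.74 in cbp+/- and -0.34 to 0.57 in wild type, so that a change of either sign remains within the error. In the interaction 7 of 10 estimates were positive, among them all 6 type II members (0.0015 to 0.17, all with an adjusted p of 1.00), against 42.5% of all probe sets. With quantile normalization 5 of the 10 interaction estimates were negative.

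**Figure D4:**
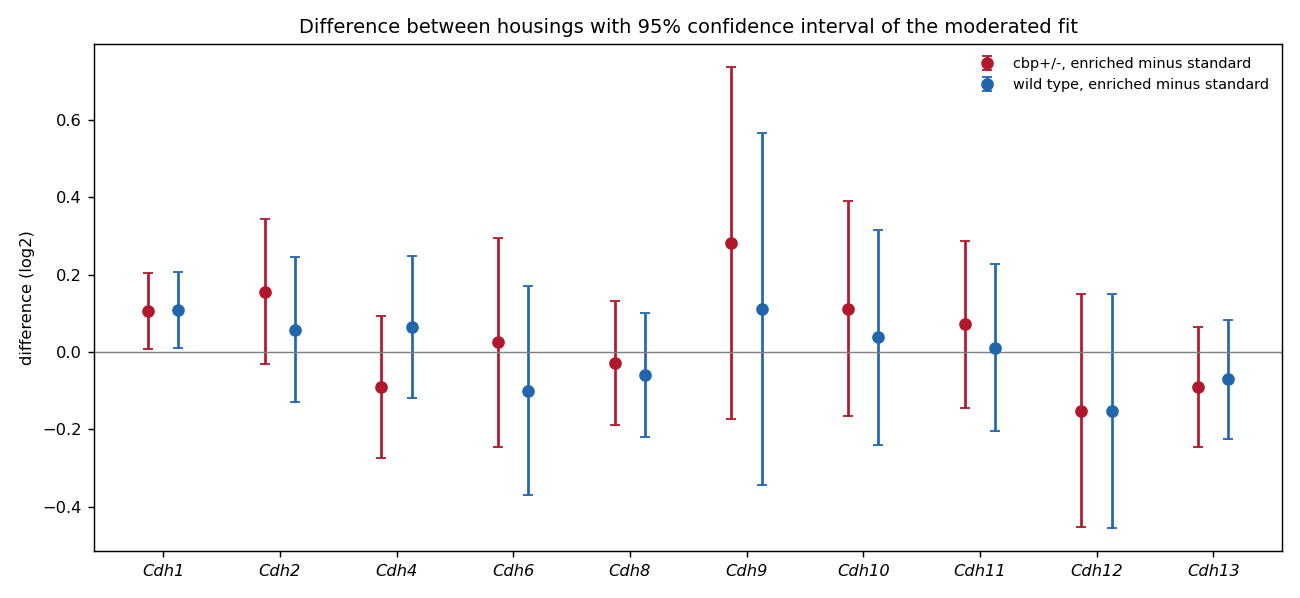
Enriched minus standard-cage log2 difference of each cadherin in cbp+/- mice and in wild-type mice, with the 95% confidence interval of the moderated fit over 16 arrays. Only the intervals of Cdh1 stay above 0 (0.0072 to 0.20 in cbp+/- and 0.010 to 0.21 in wild type), before adjustment over 21780 probe sets.

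The rest of the cadherin junction was followed through 3 lists that hold 12 other cadherins, 12 catenins and junction adaptors, and 24 regulators and partners, of which 47 genes with 49 probe sets were measured. None passed in enrichment or in the interaction (0 of 49 in each, with 2 in cbp+/-, 6 in wild type and 0 in the interaction at an unadjusted p under 0.05, where all probe sets had 2.82%, 17.8% and 2.66%). In cbp+/- enrichment the largest estimates were Ctnnd1, the p120 catenin that stabilises cadherins at the surface (-0.27, SE 0.15), Afdn, the afadin gene of nectin junctions (-0.24, SE 0.10), Cdh18 (0.14, SE 0.24) and the repressor Zeb1 (0.13, SE 0.093), each with an adjusted p of 0.999. Of the 12 catenins and adaptors 10 were lower there, with a median of -0.092, against 45% of all probe sets lower and a median of 0.0096. Cdh18 has another probe set, which gave a smaller difference both here and between genotypes in standard cages, where Cdh18 is named below.

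In wild-type enrichment they were the receptor phosphatase gene Ptpru (-0.35, SE 0.15, adjusted p = 0.252, WT_EE arrays wholly below WT_SC), the kainate receptor subunit Grik2 (-0.29, SE 0.12, adjusted p = 0.224), Snai1, a repressor of E-cadherin (0.25, SE 0.084, adjusted p = 0.176, WT_EE arrays wholly above WT_SC), and Cdh16, a kidney cadherin (0.23, SE 0.084, adjusted p = 0.190). Of all probe sets 2% had WT_EE wholly below WT_SC and 9.16% wholly above. In the interaction they were Ctnnd1 (-0.23, SE 0.21), Snai1 (-0.22, SE 0.12), Cdh22 (0.18, SE 0.16) and Ptpru (0.17, SE 0.22), each with an adjusted p of 1.00. Cdh16 was dim, at 5.68 log2 units on average over the 16 arrays. Its differences here and below involve the WT_EE arrays, whose narrower range of signal is given above for Cdh1.

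Between genotypes 36 of the 49 probe sets were lower on cbp+/- arrays averaged over housings, with a median of -0.031, and 56.7% of all probe sets were lower. The largest average differences were Cdh16 (-0.16, SE 0.059), Ptprk, a receptor phosphatase that binds its like across the junction (-0.15, SE 0.053, lower in 8 of 8 pairs), Cbll1, a ubiquitin ligase for E-cadherin (0.089, SE 0.12), and beta-catenin, Ctnnb1 (0.083, SE 0.077). In standard cages they were Pkp4, a p120-family catenin (-0.16, SE 0.099, lower in 5 of 5 pairs), Cdh18 (-0.16, SE 0.20), the endothelial cadherin Cdh5 (0.085, SE 0.073) and Arvcf, also of the p120 family (0.077, SE 0.13). In enrichment they were Cdh16 (-0.26, SE 0.093), the receptor phosphatase Ptprm (-0.22, SE 0.076, CBP_EE arrays wholly below WT_EE), Cbll1 (0.17, SE 0.19) and Cdh22 (0.14, SE 0.12). Of all probe sets 0.927% were lower in 8 of 8 pairs and 3.56% in 5 of 5 standard-cage pairs, and 6.85% had CBP_EE wholly below WT_EE.

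Cdh20, a type II cadherin outside the 10 and singled out after its values were seen, had genotypes that did not overlap in either housing. Its signal was 7.02, 7.09 and 7.14 on CBP_EE, against 7.15, 7.30 and 7.24 on WT_EE arrays, and 7.03, 6.98, 7.02, 6.83 and 7.04 on CBP_SC, against 7.22, 7.08, 7.11, 7.08 and 7.19 on WT_SC arrays. The lowest wild-type array stood above the highest cbp+/- array in each housing, and the average difference was -0.15 (SE 0.041). That all 8 of 8 pairs were lower follows from this separation and adds nothing to it. In standard cages 0.0872% of all probe sets (19 of 21780) had cbp+/- wholly below wild type, and in enrichment 6.85% did. Of all probe sets 0.927% were lower in 8 of 8 pairs. Cdh20 was picked for its values, and nothing is read from these shares. The count of probe sets past an adjusted p of 0.05 between genotypes was 0 in each housing and on average with limma, with 0.987%, 5.23% and 3.91% at an unadjusted p under 0.05 in standard cages, in enrichment and on average.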

How the data were processed

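Each array of the Affymetrix GeneChip Mouse Gene 1.0 ST platform has 1 deposited intensity per probe set, which the values show to be linear. The authors used RMA, per the submitters' processing notes. GeneSpring GX is named in the labels' protocols. Versions, a baseline transformation and the genome build are not given in these sources. Of 28815 deposited probe sets, 21780 had a single symbol in the platform's probe table and were tested, 1605 had several symbols and 5430 were unnamed here. Groups and replicate numbers came from the titles.

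Log2 values were analysed with limma 3.58.1 in R 4.3.3 (lmFit on 4 group means over 16 arrays, 12 residual degrees of freedom, eBayes). Adjusted p is after Benjamini-Hochberg across the 21780 tests, and 0.05 was the threshold. SE is the moderated standard error of a difference, and SD is over the arrays of a group. The number of arrays limits the precision. On simulated data for the cbp+/- housing comparison, 61 of 100 probe sets changed by 0.5 log2 and 96 of 100 changed by 1 log2 were called, with 5 false calls among 21780 probe sets.

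The replicate numbers pair the genotypes in standard cages: deviations from group means correlated at 0.54 to 0.77 in the 5 same-numbered genotype pairs. In enrichment r was 0.26, 0.31 and 0.63 in pairs 1, 2 and 3. Across housings it was -0.39 to 0.37 in 6 pairs, a range that holds enrichment pairs 1 and 2. Pairing in enrichment is therefore not established, and its pairs go by the number alone.

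The cadherins and all gene lists were chosen with earlier results of these data known. Named besides the 10 are Crebbp, the 2 largest differences per direction and comparison over the 3 junction lists, and the 5 genes closest to Cdh4 and to Cdh13. The alternatives were quantile normalization, leaving out the dimmest 33% of probe sets, array weights, replicate and array set blocks, values within array sets (4 sets from average-linkage clustering over all probe sets), and leaving out each array. Chosen after seeing the data were the arrays numbered 1 and 2 alone, leaving out both standard-cage arrays numbered 3, the likeness over pair differences, and Cdh20.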

Additional observations from a re-analysis of the deposited data

How the results depend on the processing

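The lower Cdh4 on cbp+/- arrays kept its sign in 27 of 27 alternative settings in standard cages (-0.25 to -0.13) and in 25 of 25 in enrichment (-0.38 to -0.27), and Cdh13 in 26 of 27 and 25 of 25. The exception was array set 2, the standard-cage arrays numbered 3, where the Cdh13 difference was 0.0082. Both genes were chosen for this direction and the settings reuse the same arrays, so these counts are descriptions and no test. Within array set 1, 7 of the 10 cadherins were lower in wild-type enrichment and 1 in the interaction, against 4 and 3 over all arrays. Fits within array sets aside, the housing and interaction estimates that changed sign under an alternative follow, with the counts of calls that changed. The cause was not tested. With quantile normalization the wild-type housing difference was -0.011 for Cdh1, 0.026 for Cdh8 and 0.00069 for Cdh13, and the interaction was 0.065 for Cdh1, -0.026 for Cdh8, -0.0013 for Cdh11 and -0.045 for Cdh12. Array weights called 1039 probe sets in cbp+/- enrichment, 5254 in wild-type enrichment and 429 in the interaction. They gave 0.027 for Cdh4, -0.0044 for Cdh9 and -0.030 for Cdh11 in cbp+/-, -0.10 for Cdh9, -0.0028 for Cdh10 and -0.12 for Cdh11 in wild type, and 0.030 for Cdh1 and 0.091 for Cdh13 in the interaction.

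The replicate block (the title's number) called 0 probe sets in each housing comparison, as the fit without it did, and changed no call on a cadherin. The genotype pairs as a block called 0 in the interaction. The title's number gave -0.0074 for Cdh11 in cbp+/-, and -0.044 for Cdh2, -0.017 for Cdh10 and -0.067 for Cdh11 in wild type. The 4 array sets as a block called 1 probe set in cbp+/- and 1 in wild-type enrichment. They gave -0.018 for Cdh6 in cbp+/-, -0.089 for Cdh9, -0.11 for Cdh10 and -0.090 for Cdh11 in wild type, and -0.033 for Cdh12 in the interaction.

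The arrays numbered 1 and 2 alone called 6513 probe sets in wild-type enrichment. They gave 0.038 for Cdh4, -0.0019 for Cdh6, -0.026 for Cdh9, -0.049 for Cdh10 and -0.063 for Cdh11 in cbp+/-. In wild type they gave -0.032 for Cdh2, -0.40 for Cdh9, -0.28 for Cdh10 and -0.18 for Cdh11, and in the interaction 0.028 for Cdh13. Without both standard-cage arrays numbered 3, Cdh6 was at -0.0094 in cbp+/-, Cdh10 at -0.016 and Cdh11 at -0.013 in wild type, and the interaction of Cdh13 at 0.017.

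Leaving out each array in turn called 0 to 19 probe sets in wild-type enrichment, with 19 without CBP_EE_3, 7 without CBP_EE_2 and 3 without CBP_SC_3. The wild-type housing difference ranged from -0.21 to 0.0017 for Cdh6, -0.013 to 0.24 for Cdh9, -0.040 to 0.17 for Cdh10 and -0.041 to 0.070 for Cdh11, and that of Cdh6 in cbp+/- from -0.079 to 0.15. The interaction ranged from -0.029 to 0.030 for Cdh1, -0.017 to 0.075 for Cdh8, -0.062 to 0.15 for Cdh10, -0.097 to 0.11 for Cdh12 and -0.068 to 0.031 for Cdh13.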
